A study of Mus musculus with 2 samples.

Results

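Occupancy by the thyroid hormone receptor (TR) TRα1 was examined at 10 genes of glycerol phosphate supply and triglyceride synthesis, among 21938 protein-coding genes of the annotation. The genes were Gpd1, Gpd2, Pck1, Aqp7, Gpam, Agpat2, Lpin1, Lpin2, Dgat1 and Dgat2. They share a role in the pathway and were picked with earlier results of these data known, and each was given the TR binding sites (TRBS) whose summit, the position with the most sequenced fragments, lay within 100 kb of its transcription start site (TSS). Of the 5107 TRBS in the deposited list, 34 met this rule and 23 of them lay within 30 kb. The chromatin came from the brown fat of male C57BL/6J mice, adults aged 8 to 12 weeks. These animals expressed TRα1 with a GS tag, and the tag was present in brown adipocytes alone, so receptor in the other cells of the tissue was not sampled. All animals received propylthiouracil, a drug that blocks thyroid hormone synthesis, in food for 2 weeks and then thyroid hormone (TH) for 24 h. There was 1 ChIP library and 1 input library of the same genotype and treatment. The hypothyroid state without hormone was not analysed here. The libraries carry no expression values, so the tissue was not checked by marker genes.

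Triglyceride is built by adding fatty acyl chains to glycerol 3-phosphate. Brown adipocytes obtain this precursor from glucose through cytosolic glycerol phosphate dehydrogenase (Gpd1), from pyruvate through Pck1 in glyceroneogenesis, and from glycerol that can pass the channel Aqp7. The mitochondrial enzyme Gpd2 oxidises glycerol 3-phosphate and, together with Gpd1, forms the glycerol phosphate shuttle that carries reducing equivalents to the respiratory chain. Gpam adds the first acyl chain, Agpat2 adds the next, the lipins Lpin1 and Lpin2 remove the phosphate, and Dgat1 or Dgat2 add the last chain. TR binds DNA most often with the retinoid X receptor on paired AGGTCA motifs.

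A total of 8 of the 10 genes had at least 1 TRBS within 30 kb, a share of 80%, whereas 16.7% of all protein-coding genes had one. Only Dgat1 and Lpin2 had none. At least 2 TRBS were found at 7 of the 10 genes (4.55% of all protein-coding genes) and at least 3 at 5 of them (1.75%). Within 1 kb of the TSS, 5 genes had a TRBS, against 3.02% of all protein-coding genes. When the limit was widened to 100 kb the count of genes stayed at 8, while the share of all protein-coding genes rose to 38.3%. Since the genes were picked with results known, and gene density and gene size were not matched, these shares are a description only. With no replicate of the ChIP library, none of these differences was tested.

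**Figure D1:**
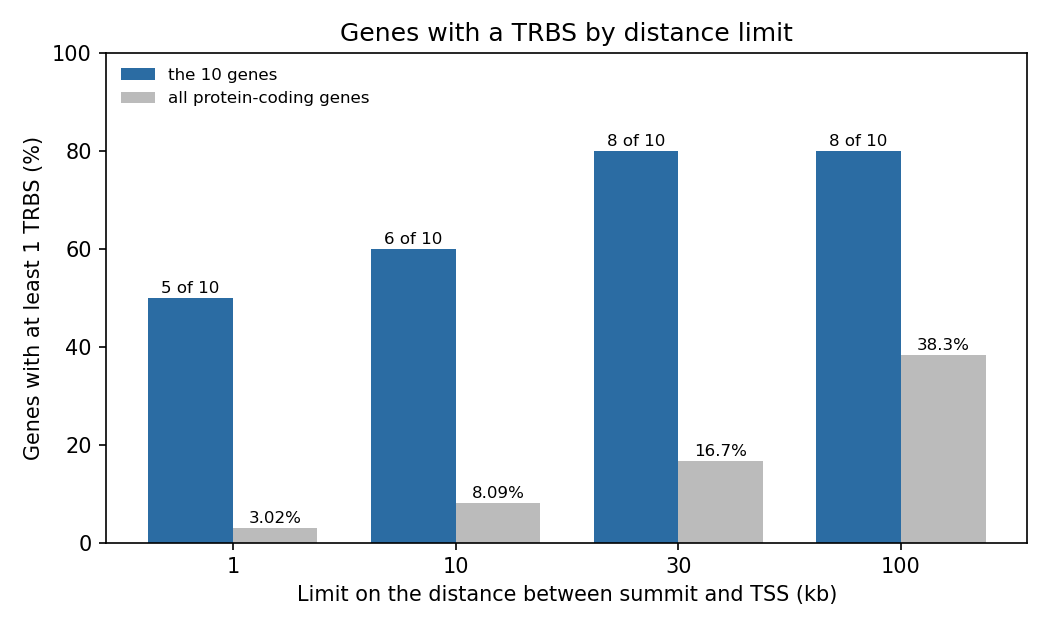
Percentage of genes with at least 1 TRBS (vertical axis) at 4 distance limits from the TSS (horizontal axis, kb), for the 10 genes of the pathway and for 21938 protein-coding genes. At 30 kb the shares were 80% and 16.7%.

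**Figure D2:**
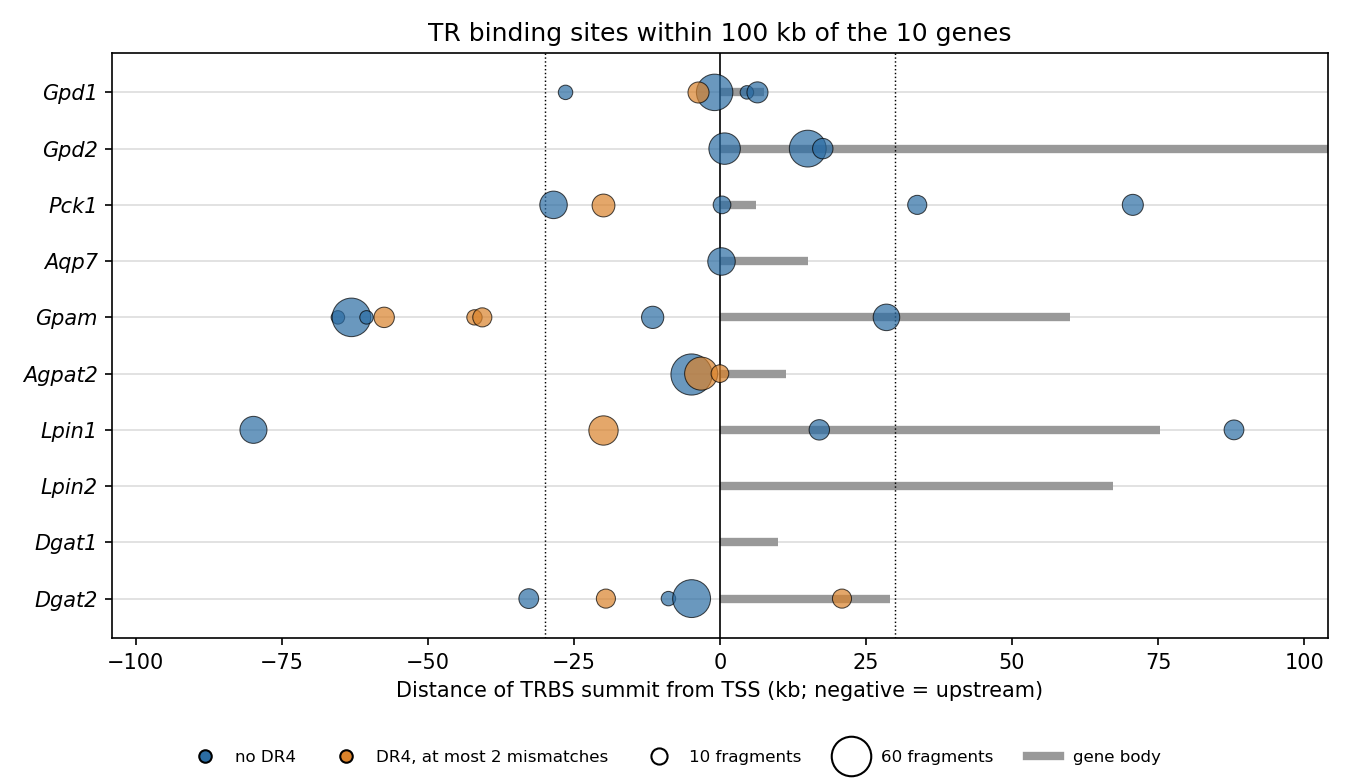
Position of TRBS around the TSS of each of the 10 genes, with the distance from the TSS in kb on the horizontal axis (negative upstream on the strand of the gene) and symbol area scaled to the ChIP fragments at the summit. Dgat1 and Lpin2 have no symbol.

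The strength of each TRBS is given as the number of ChIP fragments at its summit, which was recovered from the deposited fold enrichment and p-value, with an exact 95% Poisson interval. The intervals cover counting error only, since no molecular identifiers were described and some fragments may be copies of 1 molecule. The score is 10 times the −log10 of the q-value of the peak caller. Over all TRBS the median was 17 fragments and a score of 141. Background levels are those the peak caller set from the input on the scale of the ChIP library, with a median of 0.672 over all TRBS and a lowest value of 0.430 that recurred at separate sites. Sequences are 151-base windows centred on the summit, printed on the strand of the gene. They are given for the site of highest score within 30 kb of each gene, unless it met an untranslated region. In these windows, capitals mark an exact AGGTCA or GGGTCA, read on either strand.

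Among genes that supply or use glycerol 3-phosphate, Gpd1 on chromosome 15 had 5 TRBS within 30 kb, the most of the 10 genes in the unfiltered list. With a score of at least 60 it had 3, as did Gpd2, Pck1 and Dgat2. The strongest lay in its promoter, 900 bp upstream of the TSS, with 51 fragments (38.0 to 67.1), a fold of 23.4 and a score of 594. It ranked 470 of 5107 by score. The printed window of this site held 3 exact half-sites.
Gpd1, 900 bp upstream, chr15:99716540-99716690, plus strand: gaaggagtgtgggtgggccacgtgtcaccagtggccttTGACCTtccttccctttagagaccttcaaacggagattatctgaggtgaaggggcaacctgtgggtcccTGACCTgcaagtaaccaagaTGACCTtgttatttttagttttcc
In GRCm38, Gpd1 (ENSMUSG00000023019.12) starts at position 99717515 on the plus strand, and its sites cover chr15:99690932-99691217, chr15:99713541-99714498, chr15:99715879-99716900, chr15:99722086-99722501 and chr15:99723739-99724257. The site 3825 bp upstream had 17 fragments (9.90 to 27.2) and a score of 132, and its summit fell in the 3′ UTR of the neighbouring gene Smarcd1. The site 26419 bp upstream had 8 fragments (3.45 to 15.8) and a score of 56, and lay in an intron of Asic1, nearer to the TSS of Smarcd1 (11033 bp). Both were weaker than the promoter site, with intervals that did not overlap its interval. Inside Gpd1, a coding exon site 4624 bp downstream had 7 fragments (2.81 to 14.4) and a score of 30, the lowest score within 30 kb of any of the 10 genes. A site in the 3′ UTR of Gpd1, 6434 bp downstream, had 17 fragments (9.90 to 27.2) and a score of 155. Each of these intragenic sites was closer to the TSS of Cox14, at 3479 and 1669 bp, than to the gene start of Gpd1. Another annotated Gpd1 transcript start lay 2143 bp from the coding exon site and 3953 bp from the 3′ UTR site, so position alone does not assign them to 1 gene.

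Gpd2 on chromosome 2, the mitochondrial partner of Gpd1 in the shuttle, had 3 TRBS, all downstream of its TSS and with no other protein-coding TSS within 30 kb of the TSS. The site with the most fragments lay in intron 1, 15040 bp downstream, with 52 fragments (38.8 to 68.2), a fold of 27.7 and a score of 674. Another site in the 5′ UTR, 808 bp downstream and 61 bp from another annotated transcript start, had 38 fragments (26.9 to 52.2) and a score of 437. The intervals of these sites overlapped. The remaining site, also in intron 1 and 17610 bp downstream, had 16 fragments (9.15 to 26.0) and a score of 140, below both of the others. The window of the strongest site held no exact half-site, although 1 was found elsewhere in the peak. In GRCm38, Gpd2 (ENSMUSG00000026827.12) starts at position 57237635 on the plus strand, and its sites cover chr2:57238166-57238635, chr2:57252382-57252945 and chr2:57255106-57255436.
Gpd2, 15040 bp downstream, chr2:57252600-57252750, plus strand: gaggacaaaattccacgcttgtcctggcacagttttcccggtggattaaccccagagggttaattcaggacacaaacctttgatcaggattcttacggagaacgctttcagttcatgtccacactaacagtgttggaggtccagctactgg

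Pck1, on the same chromosome, encodes the cytosolic phosphoenolpyruvate carboxykinase of glyceroneogenesis. Its strongest TRBS was distal, 28472 bp upstream, with 29 fragments (19.4 to 41.6) and a score of 299. Another upstream site at 19944 bp had 20 fragments (12.2 to 30.9) and a score of 171. Both were intergenic and lay nearer to the TSS of Ctcfl, at 5051 and 13579 bp. The site closest to the Pck1 TSS, 366 bp downstream with its summit in a coding exon, had 12 fragments (6.20 to 21.0) and a score of 72. The intervals of the most distal and the most proximal site overlapped only between 19.4 and 21.0 fragments. The window of the distal site holds 1 exact half-site, which is part of a DR1 printed further on. In GRCm38, Pck1 (ENSMUSG00000027513.11) starts at position 173153048 on the plus strand, and its sites cover chr2:173124310-173124812, chr2:173132741-173133410 and chr2:173152658-173153616.
Pck1, 28472 bp upstream, chr2:173124501-173124651, plus strand: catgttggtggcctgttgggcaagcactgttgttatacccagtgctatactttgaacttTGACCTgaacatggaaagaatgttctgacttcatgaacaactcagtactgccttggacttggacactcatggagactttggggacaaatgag

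Aqp7, the glycerol channel, on chromosome 4, had a single TRBS within 100 kb. It lay 141 bp downstream of the TSS in the 5′ UTR, with 29 fragments (19.4 to 41.6), a fold of 13.5 and a score of 263. In GRCm38, Aqp7 (ENSMUSG00000028427.13) starts at position 41048139 on the minus strand, and its site covers chr4:41047602-41048196. No other protein-coding TSS lay within 30 kb. All 4 genes of glycerol 3-phosphate supply and use had a TRBS within 1 kb of the TSS, against 3.02% of all protein-coding genes. The fragments there ranged from 12 at Pck1, with a score of 72, to 51 at Gpd1.

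Agpat2, the acyltransferase of the step after Gpam, on chromosome 2, had the TRBS with the highest score of the 34. This site lay 4942 bp upstream, with 65 fragments (50.2 to 82.8), a fold of 38.7 and a score of 981, and it ranked 191 of 5107. A neighbouring upstream site at 3205 bp had 42 fragments (30.3 to 56.8) and a score of 538. Their intervals overlapped, and both sites were intergenic with Agpat2 as the nearest protein-coding gene. At the TSS itself, 9 bp downstream, a promoter site had 12 fragments (6.20 to 21.0) and a score of 47, well below both upstream sites. The TSSs of Egfl7, Gm20532 and Fam69b also lay within 30 kb of the Agpat2 TSS. In GRCm38, Agpat2 (ENSMUSG00000026922.13) starts at position 26604417 on the minus strand, and the promoter site and the strongest site cover chr2:26604335-26604948 and chr2:26609072-26609732. The window of the strongest site held 1 exact half-site.
Agpat2, 4942 bp upstream, chr2:26609284-26609434, minus strand: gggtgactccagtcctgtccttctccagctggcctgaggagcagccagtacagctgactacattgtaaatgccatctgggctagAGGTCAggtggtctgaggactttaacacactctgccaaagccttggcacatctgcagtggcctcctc

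Gpam, the mitochondrial acyltransferase of the first step, on chromosome 19, had no TRBS within 10 kb. Its intergenic site 11507 bp upstream had 19 fragments (11.4 to 29.7), a score of 220 and a background of 0.430, a lowest value that it shared with the Gpd1 site at 26419 bp and the Dgat2 site at 8805 bp. A site in intron 1, 28511 bp downstream and 724 bp from another annotated transcript start, had 27 fragments (17.8 to 39.3) but a lower fold of 6.92 and a score of 135. The background there was 3.04, the highest at the 23 sites, so more fragments gave a lower score. The upstream site was the widest of the 23, at 1296 bp. In GRCm38, Gpam (ENSMUSG00000024978.11) starts at position 55127238 on the minus strand, and its sites cover chr19:55098560-55099005 and chr19:55138445-55139740.
Gpam, 11507 bp upstream, chr19:55138670-55138820, minus strand: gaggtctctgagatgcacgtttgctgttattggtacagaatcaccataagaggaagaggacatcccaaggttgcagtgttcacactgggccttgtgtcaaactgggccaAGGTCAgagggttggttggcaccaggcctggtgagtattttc

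The lipins differed in the presence of TRBS. Lpin1, on chromosome 12, had an intergenic TRBS 20077 bp upstream with 33 fragments (22.7 to 46.3), a fold of 20.3 and a score of 403. Another site in an intron, 17018 bp downstream and 4175 bp from another annotated transcript start, had 16 fragments (9.15 to 26.0) and a score of 119. The intervals overlapped, and Lpin1 was the nearest protein-coding gene to both. Lpin2, on chromosome 17, had no TRBS within 100 kb. Its nearest site lay 103596 bp downstream in an intron of Emilin2, with 20 fragments and a score of 170, and was 40125 bp from an annotated Lpin2 transcript start. In GRCm38, Lpin1 (ENSMUSG00000020593.15) starts at position 16610966 on the minus strand, and its sites cover chr12:16593697-16594167 and chr12:16630576-16631391. The Lpin1 window shows the sequence around the upstream summit and holds no exact half-site.
Lpin1, 20077 bp upstream, chr12:16630968-16631118, minus strand: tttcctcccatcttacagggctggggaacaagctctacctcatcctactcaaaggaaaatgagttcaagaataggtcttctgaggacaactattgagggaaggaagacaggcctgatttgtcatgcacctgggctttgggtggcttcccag

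The diacylglycerol acyltransferases of the last step also differed. Dgat2, on chromosome 7, had 4 TRBS within 30 kb and no other protein-coding TSS in that range. The strongest lay 4838 bp upstream, with 55 fragments (41.4 to 71.6) and a score of 903, and its fold of 39.0 was the highest of the 34 sites. The upstream sites at 8805 and 19510 bp had 8 fragments (3.45 to 15.8) and 14 fragments (7.65 to 23.5), with scores of 56 and 131. A site in intron 4, 20898 bp downstream, had 14 fragments (7.65 to 23.5) and a score of 95, and lay slightly nearer to the TSS of Uvrag (20680 bp), although another annotated Dgat2 transcript start lay at 8285 bp. None of these intervals overlapped that of the strongest site. Dgat1, on chromosome 15, had no TRBS within 100 kb, and the nearest lay 184257 bp away with 15 fragments and a score of 153. In GRCm38, Dgat2 (ENSMUSG00000030747.5) starts at position 99182719 on the minus strand, and its sites cover chr7:99161738-99162070, chr7:99187172-99187899, chr7:99191453-99191798 and chr7:99201929-99202471. The TSSs of Scrt1, Tmem249, Fbxl6 and Slc52a2 lay within 30 kb of the Dgat1 TSS. The list holds sites above a calling threshold, so weaker occupancy at Dgat1 and Lpin2 was not detectable at this depth. The window of the strongest Dgat2 site held no exact half-site.
Dgat2, 4838 bp upstream, chr7:99187482-99187632, minus strand: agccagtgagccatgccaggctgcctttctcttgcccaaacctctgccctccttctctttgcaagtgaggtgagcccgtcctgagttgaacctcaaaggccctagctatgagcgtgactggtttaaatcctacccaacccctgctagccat

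**Figure D3:**
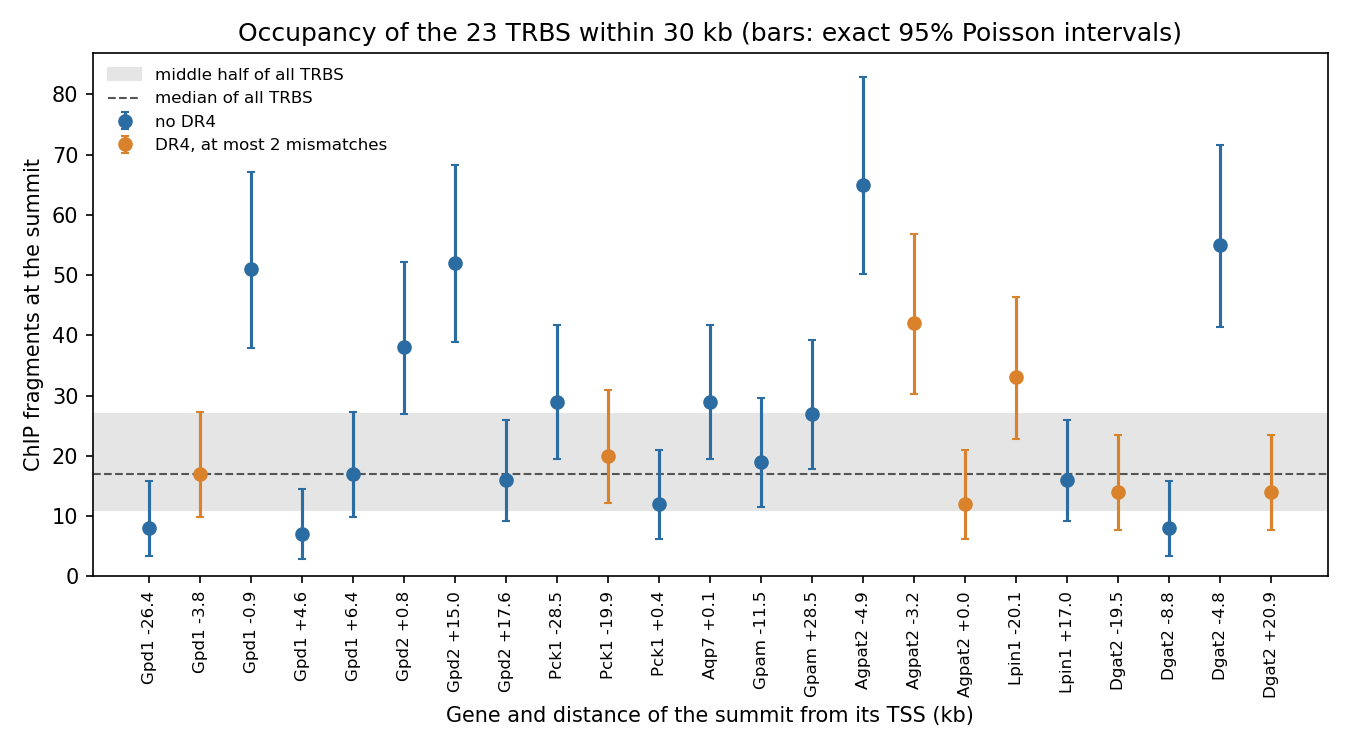
ChIP fragments at the summit (with exact 95% Poisson intervals) of the 23 TRBS within 30 kb, grouped by gene, with gene and distance from the TSS in kb on the horizontal axis. Orange points hold a DR4, blue points do not, the dashed line is the median of 17 over all TRBS and the band is their middle 50%. The highest value is 65 at Agpat2 and the lowest is 7 at Gpd1.

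The 23 sites had a median of 19 fragments (range 7 to 65), against 17 over all TRBS, and a median score of 155 against 141. Among sites with a score of at least 60 the medians were 27 and 20 fragments, and with at least 100 they were 29 and 23. They lay both above and below the middle of the list. The interval lay above 17 fragments at 10 sites and below it at 3. By score, 8 were in the top 25% of the list, 4 in the top 10% and 5 in the bottom 25%. Every one of the 8 genes had a site above the median fragment count, but this takes the highest site of each gene. The share over all genes with a TRBS was not computed. The median width was 564 bp, against 424 bp over all TRBS, and the median GC content was 53.6%, against 51.1%. A score of at least 60, the threshold of the study, was reached by 19 of the 23. The other 4 fell under it, as did 897 of the 5107 TRBS in the list. Upstream and downstream sites were about equally common, at 12 and 11. The summits fell in intergenic sequence at 9 sites, in introns at 6, and in promoters, 5′ UTRs, 3′ UTRs and coding exons at 2 each. The pathway gene was the nearest protein-coding gene at 17 sites and another gene was nearer at 6.

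The sequences under the sites were searched on both strands over the whole peak. The DR4 element, AGGTCA repeated directly with a spacer of 4 bases and at most 2 mismatches over the 12 half-site bases, was present in 7 of the 23 sites, or 30.4% (95% Wilson interval 15.6 to 50.9). The share was 31.98% over all TRBS and 5.43% in flanking windows of the same width. A DR1, with a spacer of 1 base and also at most 2 mismatches, was present in 6 sites, or 26.1% (12.5 to 46.5), against 14.9% over all TRBS and 7.92% in flanks. In the 39 flanking windows of the 23 sites themselves, which were wider, the share was 12.8% for DR1 (5.60 to 26.7) and 2.56% for DR4 (0.454 to 13.2). The interval of the 23 sites included the share over all TRBS for both elements. DR4 and DR1 matches can overlap and share a half-site. An exact AGGTCA or GGGTCA occurred in 19 sites, or 82.6% (62.9 to 93.0), against 72.5% over all TRBS and 42.1% in flanks.

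With at most 2 mismatches, no DR4 was found in the 4 sites of highest score, at Agpat2, Dgat2, Gpd2 and Gpd1. Over all TRBS, 31.98% held one. The best match of each of the 4 sites had 3 mismatches, and all 4 held an exact half-site. The site of next highest score, at Agpat2 with a score of 538, held a DR4. Every DR4 found in the 23 sites at this setting had exactly 2 mismatches. The best element of 6 of the 7 sites is shown, with the half-sites in capitals and the spacer in lower case. In the labels of elements here and below, the distance is that of the site's summit and the coordinates are those of the element.
Gpd1, 3825 bp upstream, chr15:99713722-99713737, minus strand: AGGACAtgggAGGACA
Pck1, 19944 bp upstream, chr2:173133027-173133042, plus strand: AGGGCAaccaATGTCA
Agpat2, 9 bp downstream, chr2:26604702-26604717, minus strand: AGGTAAccatTGGTCA
Dgat2, 19510 bp upstream, chr7:99202046-99202061, minus strand: AGGTGAatatAAGTCA
Dgat2, 20898 bp downstream, chr7:99161772-99161787, plus strand: AGGCCAggccAGGTTA
Lpin1, 20077 bp upstream, chr12:16631031-16631046, minus strand: AGGTCTtctgAGGACA
The centre of the element lay 4.5 bp from the summit at Lpin1, but 301.5 bp away at the Agpat2 promoter site. The element of the intronic Dgat2 site lies in a short tandem run, where DR4 matches overlap. A DR1 with 1 mismatch was found at 3 sites.
Gpd1, 900 bp upstream, chr15:99716571-99716583, minus strand: AGGTCAaAGGCCA
Pck1, 28472 bp upstream, chr2:173124553-173124565, minus strand: AGGTCAaAGTTCA
Lpin1, 17018 bp downstream, chr12:16593906-16593918, minus strand: AGGTCAcAGGTGA

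Motifs of other factors were also counted. TTGCGCAA, a C/EBP motif, was matched with at most 1 mismatch in 4 of the 23 sites (17.4%), against 12.0% over all TRBS and 5.63% in flanks. The EBF motif, TCCC and GGGA separated by 2 bases, was found in 1 site (4.35%), against 4.54% and 1.29%. The NF1 motif, TTGGC and GCCAA separated by 5 bases with at most 1 mismatch, was found in 0 of 23 sites, which allows a share of up to 13.0% if 3 counts are taken as the limit of a count of 0 (upper end of the Wilson interval 14.3%), and in 2.94% of all TRBS. At 23 sites the intervals are wide, and each interval included the share over the whole list.

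**Figure D4:**
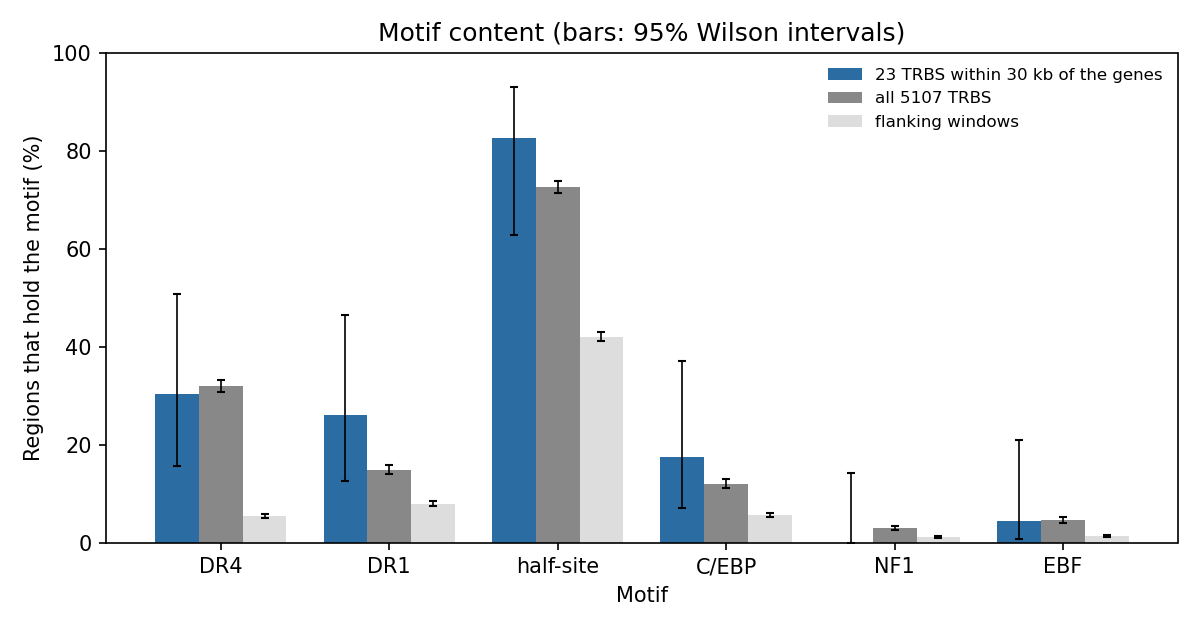
Percentage of regions with each motif, with 95% Wilson intervals, in the 23 TRBS within 30 kb, in all 5107 TRBS and in flanking windows. The DR4 share was 30.4% in the 23 sites and 31.98% in all TRBS.

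Between 30 and 100 kb lay 11 further TRBS, with 7 to 57 fragments (median 15), and only 1 of them had 1 of the 10 genes as the nearest protein-coding gene. A run of 6 lay 40664 to 65381 bp upstream of Gpam, in or near Tectb, and the strongest of these, 63068 bp upstream, had 57 fragments and a score of 525. The other 5 were at Pck1, Lpin1 and Dgat2, and had 14 to 28 fragments. The sites nearest to the 30-kb limit were at 28511 bp (Gpam, 27 fragments) and 28472 bp (Pck1, 29 fragments) inside it, and at 32714 bp (Dgat2, 15 fragments) and 33780 bp (Pck1, 14 fragments) outside it. Around the 100-kb limit, the Lpin1 site at 87995 bp (15 fragments) lay inside, and the Lpin2 site at 103596 bp (20 fragments), the Gpd1 site at 107782 bp (27 fragments) and a Pck1 site at 108270 bp (54 fragments) lay outside.

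In a wider list of 31 genes of the same metabolism, also made with earlier results known, 13 (41.9%) had a TRBS within 30 kb, against 16.7% of all protein-coding genes, and all 13 had one with a score of at least 60. The 13 genes were Gpat4, Agpat3, Lpin3, Mogat2, Gk, Pck2, Pcx, Tpi1, Pnpla3, Fitm1, Acsl1, Acsl5 and Mdh1. When each TRBS was given to its nearest protein-coding gene only, 8 of the 31 had one. The share of all protein-coding genes under this rule was not computed. The strongest TRBS of the 13 genes lay 17358 bp upstream of Pcx, which encodes pyruvate carboxylase, with 123 fragments (102.2 to 146.8) and a score of 2471, nearer to 2010003K11Rik. At Pnpla3, a lipid droplet protein, the strongest of 5 sites had 58 fragments (44.0 to 75.0) and a score of 943, nearer to Pnpla5. Mdh1, the cytosolic malate dehydrogenase, had 2 sites, the stronger of 31 fragments (21.1 to 44.0), nearer to Wdpcp. Gpat4, an acyltransferase of the first step in the endoplasmic reticulum, had 3 sites, the strongest intronic with 33 fragments (22.7 to 46.3). The strongest of 3 sites at Lpin3, the remaining lipin, had 45 fragments (32.8 to 60.2) and lay 82 bp from the TSS of Zhx3. Pck2 and Fitm1 shared a TRBS, and that of Mogat2 was the Dgat2 site at 32714 bp, so these counts are not independent.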

How the data were processed

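The ChIP library and its input were available as a single list of peaks. Per the labels and the submitters' processing notes, reads were aligned to mm10 with Bowtie2 2.3.2.2 and peaks called with MACS2 2.1.1.20160309.6. The authors deposited for each peak a score, a fold (the ratio of ChIP pileup to input background at the summit, with a pseudocount of 1) and −log10 p- and q-values. The deposited list was not filtered, and 897 TRBS had a score under 60. No column of per-sample values was left out (0).

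Whole ChIP fragments and background were solved from the deposited fold and −log10 p for 5090 of 5107 TRBS (tolerance 0.0005), and the solver was tested on simulated data. At the other sites no fragment count was given, and all 34 TRBS of the 10 genes were solved. TSSs were gene starts of the GENCODE annotation of GRCm38, and sequences came from the GRCm38 genome. Python 3.11.15, scipy 1.17.1 and pysam 0.24.0 were used. A promoter was 1000 bp before to 100 bp after a TSS. Flanking windows lay 2 kb beyond each edge. Named genes were all 10 genes, other pathway genes with a TRBS of score at least 60 within 30 kb, and nearer genes. Neighbouring genes and genes that held a site or element were also named. The members and lists were chosen with earlier results of these data known. Alternatives covered score, fold, distance, TSS choice, merging of summits and mismatches. The sequence of 1 Agpat2 site is not reported here.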

Additional observations from a re-analysis of the deposited data

How the results depend on the processing

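Of 54 alternative values, 40 stayed within 1.5 times the reported count or median, or within the 95% interval of a share, and 14 moved further. The median of 19 fragments was 27 with a score of at least 60 and 29 with at least 100. The count of genes with a TRBS stayed at 8 in 8 of 9 alternatives, and was 6 within 10 kb, where Gpam and Lpin1 were lost. Distance from the peak edge, the start of any annotated transcript and the 100-kb limit could only add genes, so they could not lower this count. The share of all protein-coding genes with a TRBS within 30 kb was 14.1% with a score of at least 60, 11.3% with at least 100, 15.6% with a fold of at least 5, 19.6% from any annotated transcript start, 8.09% within 10 kb, 38.3% within 100 kb, and 13.0% over all annotated genes. Within 10 kb, 12 of the 23 TRBS counted. The pathway list gave 8 genes when each TRBS went to its nearest gene only, 5 within 10 kb and 23 within 100 kb. For assignment to the nearest gene only, no share of all protein-coding genes was computed. The DR4 share of the 23 sites was 0% with at most 1 mismatch, which allows up to 13.0% (3 counts of 23), and 78.3% with at most 3, against 7.23% and 72.5% over all TRBS. These changes follow from the thresholds by construction. No paired analysis was possible because there was 1 ChIP library and no test. A single library cannot give replicate error, and sites of 7 or 8 fragments lie near the calling limit.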

Other observations

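DR4 elements were also counted in the 60-kb windows around the TSSs of the 10 genes. Overlapping matches were counted separately, and the share over the windows of all genes was not computed. With at most 2 mismatches there were 86 matches, of which 14 lay in a TRBS. None had 0 mismatches, and the 3 with 1 mismatch all lay outside TRBS, in introns of Agpat2, Hsf1 (near Dgat1) and Lpin2.
Agpat2, chr2:26594223-26594238, plus strand: AGGTCActgtAGGTCC
Dgat1, chr15:76482976-76482991, plus strand: AGGTCActgcAGGTCT
Lpin2, chr17:71198312-71198327, minus strand: AGGCCAgaagAGGTCA
The distance from these elements to the nearest TRBS summit was 10178 bp at Agpat2, 176886 bp near Dgat1 and 87837 bp at Lpin2. Dgat1 and Lpin2 had no TRBS within 100 kb, so an element there could not lie in one.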
